A study of Mus musculus with 12 samples.

Results

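The Nr4a nuclear receptors are 3 genes, Nr4a1, Nr4a2 and Nr4a3, of 23793 genes tested, read by 4 of the 39429 probes on the array. They were taken as every probe that was not a control and that the scanner output names for one of the 3 genes: 1 probe for Nr4a1, 2 for Nr4a2 and 1, printed at 10 spots, for Nr4a3. All 4 probes were kept by a filter that asked for signal well above background on every array of at least 1 group. The genes were selected on their measured levels in the 4 groups described here, so those levels and the differences between groups are given as a description, with no test and no p-value.

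RNA of LSK cells, which are blood-forming stem and progenitor cells gated as negative for lineage markers and positive for Sca-1 and Kit, was taken from male mice of the strain DBA2/J and measured on 12 arrays with 1 dye. Of these, 3 arrays each held LSK cells from peripheral blood after G-CSF (5 days, 9 injections), AMD3100 (1 hr), an antagonist of the chemokine receptor CXCR4 that keeps these cells in marrow, or the pair CWHM-823+tGro-b (no time stated), an inhibitor of the adhesion receptor VLA-4 and a truncated chemokine that acts on CXCR2. The remaining 3 arrays held LSK cells from bone marrow of mice given PBS. No group held blood of untreated mice, so the treatment and the move from marrow to blood cannot be told apart, and the treatments differ in length. The labels give no ages and do not say whether arrays of one treatment stand for different animals, so the spread between arrays may be technical. Arrays with the same replicate number shared 1 of the 3 slides, so that each slide carried all 4 groups, and differences within a slide are given beside the group means.

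Nr4a receptors are orphan nuclear receptors: their ligand pockets are filled by their own side chains, so their activity is set largely by how much of them a cell makes. All 3 genes are immediate early genes, switched on within a short time by calcium, cyclic AMP, growth factor and stress signals, with the factor CREB acting at cyclic AMP response elements in their promoters. The proteins bind as monomers to a DNA element called NBRE, and Nr4a1 and Nr4a2 can also pair with the retinoid X receptors. In mouse blood formation they hold back division of stem and progenitor cells, and loss of Nr4a1 and Nr4a3 together leads to acute myeloid leukaemia.

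The sequences below are the array's own probes for Nr4a2 and Nr4a3, shown because each value of these genes that follows is what that stretch captured. The Nr4a2 probes lie at chr2:56960699-56960758 and chr2:56959637-56959696 on the minus strand, in mm9 as the scanner output gives them. The scanner output gives no position for the Nr4a3 probe, and no exon annotation of mm9 was used here.
Nr4a2 probe 1: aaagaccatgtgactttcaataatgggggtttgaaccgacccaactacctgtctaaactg
Nr4a2 probe 2: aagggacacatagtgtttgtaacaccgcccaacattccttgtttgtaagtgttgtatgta
Nr4a3: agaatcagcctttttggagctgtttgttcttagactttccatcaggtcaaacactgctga

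The promoters of the genes are shown because all 3 share a feature that the choice of genes did not use. Each window runs from 250 bases before to 50 bases after the RefSeq start in GRCm38.p6, at chr15:101266596-101266895 on the plus strand for Nr4a1, chr2:57123954-57124253 on the minus strand for Nr4a2 and chr4:48045055-48045354 on the plus strand for Nr4a3. Capitals mark the half-site of the cyclic AMP response element, TGACG, or its reverse complement, CGTCA, where the half-site lies on the other strand.
Nr4a1: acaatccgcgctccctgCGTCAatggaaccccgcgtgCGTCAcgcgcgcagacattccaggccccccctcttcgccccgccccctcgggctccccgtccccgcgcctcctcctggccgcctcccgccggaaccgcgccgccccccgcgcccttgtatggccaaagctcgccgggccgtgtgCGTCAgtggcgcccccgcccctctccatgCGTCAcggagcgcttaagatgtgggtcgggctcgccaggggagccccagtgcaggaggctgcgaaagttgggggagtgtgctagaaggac
Nr4a2: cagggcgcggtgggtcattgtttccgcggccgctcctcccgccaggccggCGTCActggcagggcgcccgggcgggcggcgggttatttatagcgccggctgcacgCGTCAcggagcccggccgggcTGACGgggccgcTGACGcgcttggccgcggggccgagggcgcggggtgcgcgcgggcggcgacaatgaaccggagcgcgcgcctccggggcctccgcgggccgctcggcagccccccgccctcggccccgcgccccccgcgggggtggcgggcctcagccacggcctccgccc
Nr4a3: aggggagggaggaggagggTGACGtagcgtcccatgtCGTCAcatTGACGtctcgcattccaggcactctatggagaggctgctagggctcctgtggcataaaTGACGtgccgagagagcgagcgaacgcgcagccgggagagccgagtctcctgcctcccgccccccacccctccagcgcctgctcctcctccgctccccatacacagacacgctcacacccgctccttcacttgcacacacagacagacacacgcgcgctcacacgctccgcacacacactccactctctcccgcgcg

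Each of the 3 windows held 4 half-sites. At least 4 were present in 76 of 32851 promoter windows of the same length (0.231%), and at least 1 in 20.8%. The windows were GC-rich, at 72.3% for Nr4a1, 81.7% for Nr4a2 and 64.7% for Nr4a3, against a median of 52.7% over all windows, and the half-site itself holds a CG pair. Among the 6218 windows with at least 64.7% GC, 35 (0.563%) held 4 or more. Genes named below for their levels held fewer where they were counted. The most in any window was 0 for Klf6, Lrp1, Spry1 and Rnd3, and 1 for Fosb and Pde4b. It was 2 for Nfkbid, Fos and Rgs2, and also 2 for Rcan1, whose level stayed near that of marrow. A link between half-sites and levels was not tested. In the Nr4a1 window all 4 lay on the strand opposite the gene, with first bases at -233, -213, -69 and -40 from the start site. In the Nr4a2 window 2 lay on each strand, with first bases at -200, -144, -123 and -111. In the Nr4a3 window 3 of 4 lay on the gene's strand, with first bases at -231, -213, -205 and -147. The full palindrome TGACGTCA, present in 1.79% of windows, and the NBRE, AAAGGTCA, present in 1.51%, were in none of the 3 windows on either strand. These letters are a description of the windows, not evidence of binding. CREB was already known to act at such elements in these promoters, and the cut of 4 is the count they held. The shares of all windows are therefore not an independent comparison.

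**Figure D1:**
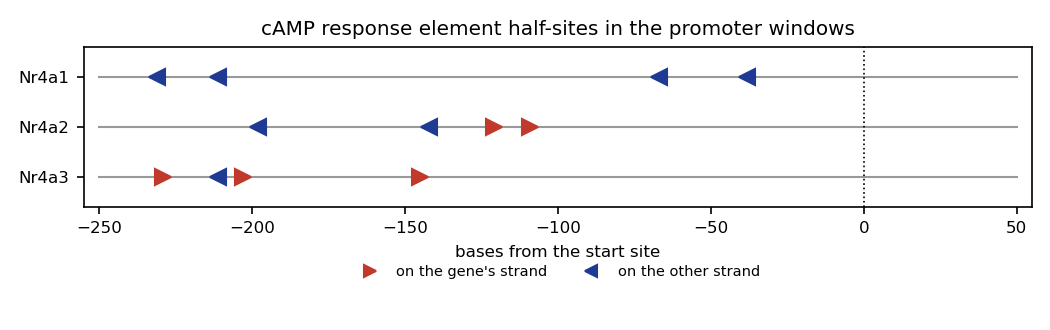
Position of the cyclic AMP response element half-sites in the promoter windows of Nr4a1, Nr4a2 and Nr4a3, in bases from the start site (dotted line). Triangles point right for half-sites on the gene's strand and left for those on the other strand, and each window holds 4.

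Nr4a1 was higher on every blood array than on any marrow array. Levels are the log2 of the background-subtracted signal over that array's 75th percentile, so that 0 is the signal at the 75th percentile of the probes. Nr4a1 lay at 2.99, 2.49 and 3.22 in G-CSF blood, at 3.56, 2.64 and 2.85 in AMD3100 blood and at 4.33, 3.96 and 4.22 in CWHM-823+tGro-b blood, against -0.17, -0.30 and -1.55 in marrow. The marrow arrays spread most, and the third of them was the lowest. In these bulk samples fewer cells that hold a transcript and less of it per cell cannot be told apart. The difference from marrow was 3.57 ± 0.38 in G-CSF blood (standard error of the linear model, 3 arrays per group), an 11.9-fold higher level. In AMD3100 blood the difference was 3.69 ± 0.38, or 12.9-fold, and in CWHM-823+tGro-b blood 4.84 ± 0.38, or 28.7-fold. Ordered by their difference from marrow among the 23793 genes tested, Nr4a1 was at rank 31 in G-CSF blood, rank 9 in AMD3100 blood and rank 9 in CWHM-823+tGro-b blood. Blood arrays did not overlap marrow arrays, and lay higher, for 11.7% of all genes in G-CSF blood, 14.6% in AMD3100 blood and 4.46% in CWHM-823+tGro-b blood. The choice of the genes used these contrasts, so nothing is read from the separation of the Nr4a genes against those shares.

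The blood groups were not equal for Nr4a1. CWHM-823+tGro-b blood was 1.15 ± 0.38 above AMD3100 blood, and on slides 1, 2 and 3 by 0.77, 1.32 and 1.37, with no overlap of arrays (11.2% of all genes had CWHM-823+tGro-b arrays that lay higher without overlap). G-CSF blood was below CWHM-823+tGro-b blood, with a difference of -1.27 ± 0.38, and the arrays did not overlap (6.78% of all genes had G-CSF arrays that lay lower without overlap). G-CSF and AMD3100 blood overlapped, and their difference of -0.12 ± 0.38 was smaller than its error. The order of Nr4a1 was thus CWHM-823+tGro-b blood highest, AMD3100 and G-CSF blood next with no difference beyond their spread, and marrow lowest.

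**Figure D2:**
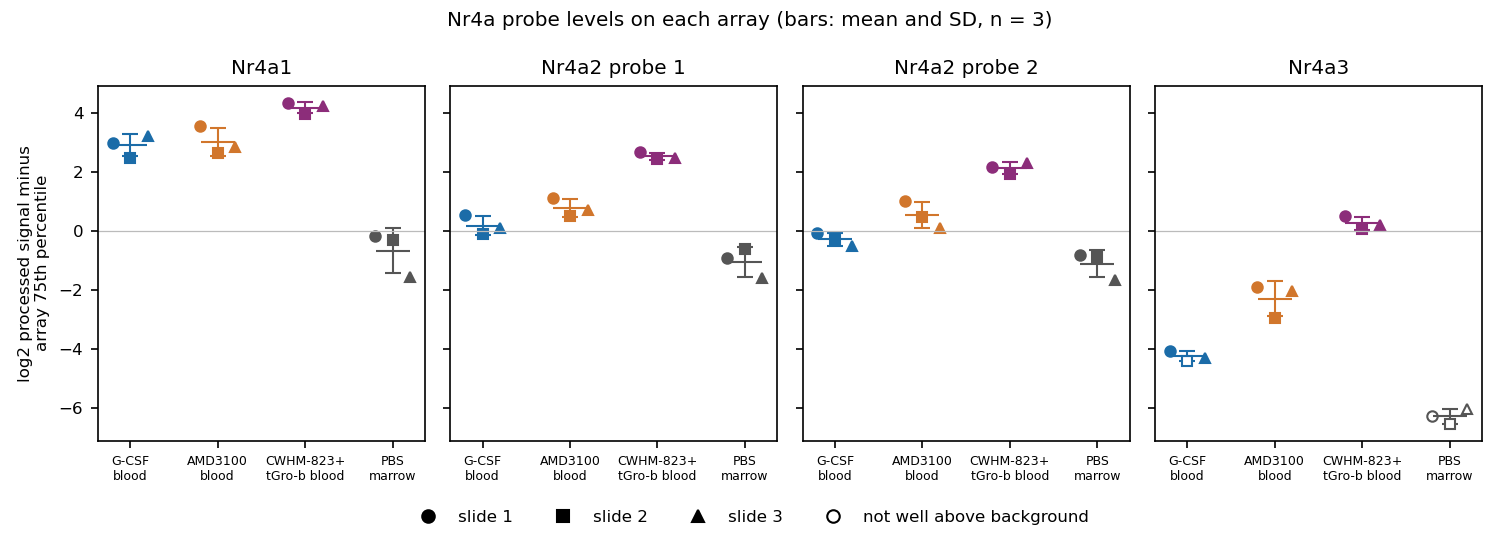
Level of each Nr4a probe on each of the 12 arrays, as the log2 ratio of its signal to that array's 75th percentile, with the mean and SD of 3 arrays per group. Circles, squares and triangles are slides 1, 2 and 3 and open symbols are arrays on which the probe was not well above background. Nr4a1 in blood lies between 2.49 and 4.33, and Nr4a3 is open on all 3 marrow arrays and on 1 G-CSF array.

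Nr4a2 was also higher on every blood array than on any marrow array. Its first probe lay at 0.53, -0.11 and 0.10 in G-CSF blood, at 1.13, 0.51 and 0.71 in AMD3100 blood and at 2.66, 2.44 and 2.49 in CWHM-823+tGro-b blood, against -0.91, -0.61 and -1.59 in marrow. The nearest arrays of blood and marrow, both on slide 2, were 0.50 apart. The difference from marrow was 1.21 ± 0.30 in G-CSF blood (2.31-fold, rank 459), 1.82 ± 0.30 in AMD3100 blood (3.52-fold, rank 156) and 3.56 ± 0.30 in CWHM-823+tGro-b blood (11.8-fold, rank 27).

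The second Nr4a2 probe, which binds another stretch of the same gene, gave differences from marrow of 0.82, 1.64 and 3.23, each ± 0.30, in the same order of groups. The 2 probes had a Pearson correlation of 0.984 over the 12 arrays, which share slides and groups. They disagreed on one point: G-CSF and AMD3100 arrays overlapped for the first probe (difference -0.61 ± 0.30) and did not for the second (-0.83 ± 0.30; 27.8% of all genes had G-CSF arrays that lay lower without overlap). Within slides the difference of G-CSF from AMD3100 blood was -0.60, -0.62 and -0.61 for the first probe and -1.09, -0.77 and -0.62 for the second. CWHM-823+tGro-b blood was above AMD3100 blood by 1.75 ± 0.30 and 1.58 ± 0.30 for the first and second probe. G-CSF blood differed from CWHM-823+tGro-b blood by -2.36 ± 0.30 and -2.41 ± 0.30. Nr4a2 was thus highest in CWHM-823+tGro-b blood and lowest in marrow, with AMD3100 and G-CSF blood between them. G-CSF blood was below AMD3100 blood on every slide by both probes, but this difference was not unusual among all genes. The first probe was at rank 9992 from the lowest of 23793 genes. The median difference of all genes in that comparison was -0.37, or -0.10 after quantile normalization.

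Nr4a3 was not well above background on any marrow array and differed most between blood groups among the 3 genes. Its probe is printed at 10 spots, and on the marrow arrays 0 of 10, 0 of 10 and 0 of 9 usable spots were well above background, with processed signals of 25.8, 26.6 and 25.5. In CWHM-823+tGro-b blood all 10 spots were above background on each array, and the level was 0.51, 0.07 and 0.22, from signals of 2725, 2138 and 2294. In AMD3100 blood all 10 spots were also above background on each array, with levels of -1.88, -2.95 and -2.02 and signals of 312, 204 and 389. In G-CSF blood 7 of 8, 5 of 10 and 9 of 10 spots were above background, with levels of -4.05, -4.38 and -4.29, and the second array counted as not well above background.

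Because marrow gives only an upper limit, a difference from it is a bound, set against the lowest signal well above background on each marrow array. With the processed signal, the bound for Nr4a3 above marrow was 20.8-fold in CWHM-823+tGro-b blood (log2 bound 4.38). In AMD3100 blood it was 3.54-fold (log2 bound 1.82). Both bounds were lower with another background correction, so they are not the least possible differences. The limit is also approximate. On the second G-CSF array Nr4a3 lay slightly above that array's own limit without counting as well above background. No fold is given for G-CSF blood, whose mean level of -4.24 ± 0.17 (SD, n = 3) was under the marrow limit.

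Among blood groups the Nr4a3 levels followed one order without overlap. Of all genes, 11.2% had CWHM-823+tGro-b arrays above AMD3100 arrays without overlap. G-CSF arrays lay lower without overlap than AMD3100 arrays for 27.8% and than CWHM-823+tGro-b arrays for 6.78%. CWHM-823+tGro-b blood was 2.55 ± 0.30 above AMD3100 blood, a 5.87-fold higher signal, and on slides 1, 2 and 3 the difference was 2.39, 3.03 and 2.24. The G-CSF signals lay close to the background limit, so the size of their differences is uncertain. G-CSF blood differed from AMD3100 blood by -1.96 ± 0.30 and from CWHM-823+tGro-b blood by -4.51 ± 0.30. With background corrected by the normexp model in place of the scanner software, these 3 differences were 1.97, -0.87 and -2.83.

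**Figure D3:**
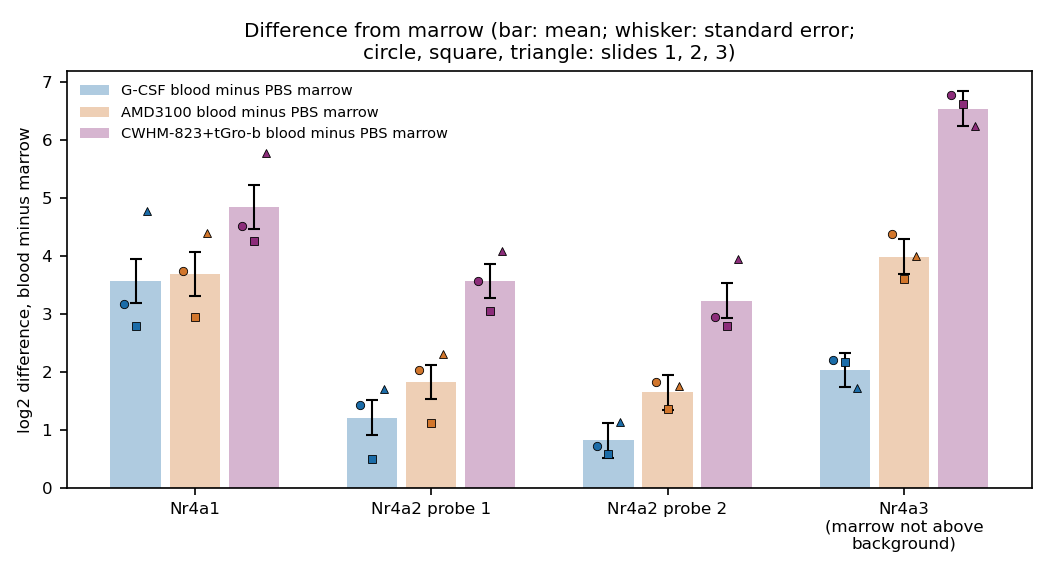
Log2 difference of each Nr4a probe from marrow in the 3 blood groups, with bars for the mean, whiskers for the standard error and circles, squares and triangles for slides 1, 2 and 3. Every slide lies above 0 for every probe. The Nr4a3 bars rest on marrow signals not well above background, so for them only bounds are stated. With the processed signal these are 4.38 in the CWHM-823+tGro-b group and 1.82 in the AMD3100 group.

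The shifts of the 3 genes were compared between CWHM-823+tGro-b and AMD3100 blood, where all 3 were above background on every array. The shift of Nr4a3 exceeded that of Nr4a1 by 1.40 (1.62, 1.71 and 0.87 on the 3 slides), or by 0.78 with normexp (1.00, 0.95 and 0.39). It exceeded that of Nr4a2 by 0.81, with the same sign on all slides, or by 0.23 with normexp (0.37, 0.33 and 0.01). Between G-CSF and AMD3100 blood Nr4a3 lay close to the background limit in G-CSF blood, and its shift minus that of Nr4a1 was -1.84 with the processed signal and -0.77 with normexp. With normexp the sign was not the same on all slides (0.14, -0.65 and -1.80), so an unequal shift of these genes in that comparison depends on the background correction. The normexp values here, and the correlations over blood arrays alone that follow, were added after the data were seen. Over the 12 arrays the Pearson correlation of levels was 0.892 for Nr4a1 with Nr4a2, 0.868 for Nr4a1 with Nr4a3 and 0.967 for Nr4a2 with Nr4a3. With the group means removed, the correlation over the 12 arrays was 0.863, 0.18 and 0.214, in the same order of pairs. The last 2 values include marrow arrays on which Nr4a3 was not above background. Over the 9 blood arrays alone, with the group means removed, it was 0.780, 0.686 and 0.768. These correlations describe arrays that share slides and groups.

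**Figure D4:**
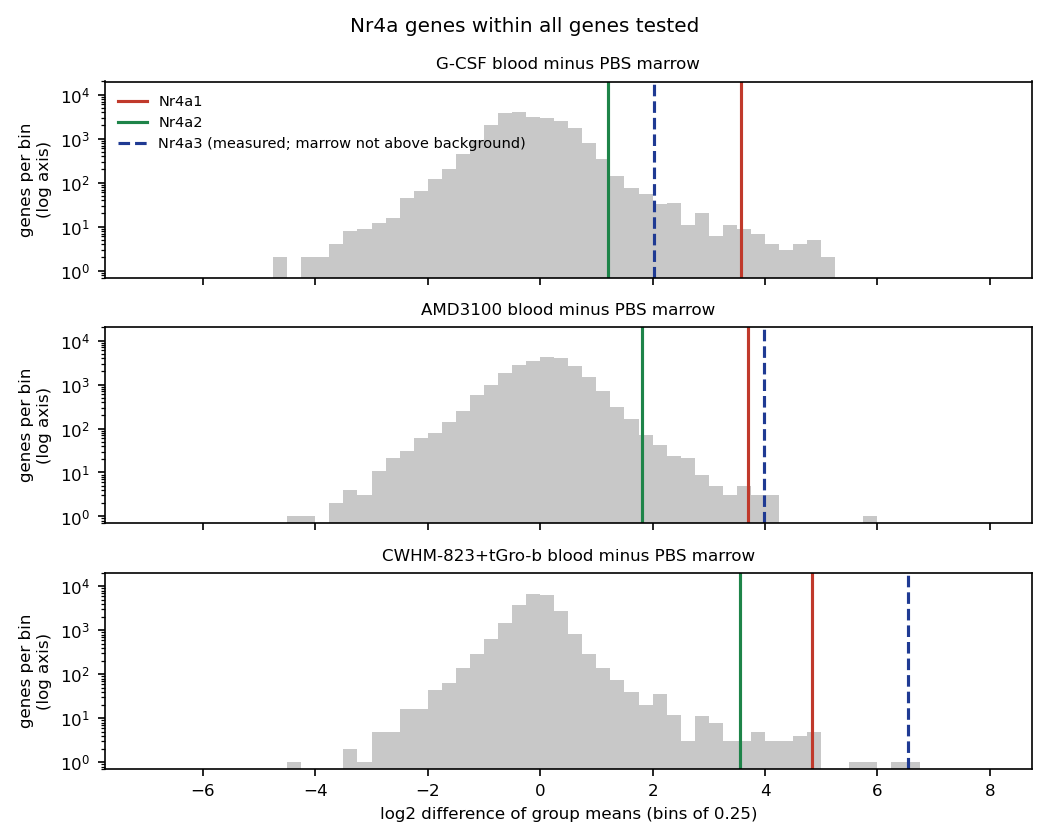
Histogram of the log2 difference from marrow of all 23793 genes tested, in bins of 0.25 with genes per bin on a log axis, for G-CSF, AMD3100 and CWHM-823+tGro-b blood. Vertical lines mark Nr4a1 at 3.57, 3.69 and 4.84, Nr4a2 at 1.21, 1.82 and 3.56, and, dashed because marrow was not above background, Nr4a3.

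The genes with the pattern most like Nr4a1, by Pearson correlation of levels over the 12 arrays, were Nfkbid (0.986), Egr3 (0.980), Klf6 (0.979), Pde4b (0.973) and Lrp1 (0.972). Nfkbid encodes an atypical inhibitor of the factor NF-kappa-B, Egr3 an immediate early zinc finger factor, Klf6 a Kruppel-like factor, Pde4b an enzyme that breaks down cyclic AMP and Lrp1 a lipoprotein receptor. Egr3 averaged 3.14 in G-CSF, 4.43 in AMD3100 and 5.09 in CWHM-823+tGro-b blood, against -1.35 in marrow. Nr4a2 was most like Spry1 (0.979), an inhibitor of receptor tyrosine kinase signalling, followed by Nr4a3 (0.967), Rnd3 (0.951), Slc2a3 (0.941) and Gpr171 (0.938). Nr4a3 was most like Gpr171 (0.976), a G protein-coupled receptor, Spry1 (0.970), Nr4a2 (0.967), Rasgef1b (0.944) and Cd93 (0.935). Spry1 averaged -1.53, -1.04 and 1.05 in the G-CSF, AMD3100 and CWHM-823+tGro-b groups, against -3.79 in marrow, where 2 of 3 arrays were above background.

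Cell type markers were set beside these levels. The LSK markers Kit, Ly6a (Sca-1) and Cd34 were above background on all 12 arrays. Kit averaged 3.31, 3.25 and 3.43 in the G-CSF, AMD3100 and CWHM-823+tGro-b groups, against 3.48 in marrow. In the same order Ly6a averaged 0.705, -0.90 and -0.70, against -0.95 in marrow, and Cd34 2.90, 2.13 and 2.85, against 2.39. Among the other LSK and progenitor markers, Runx1 averaged 0.54, 0.435 and 0.48, against -0.80 in marrow. Flt3 averaged 1.57, 2.80 and 2.52, against 2.75. Tal1 and Meis1 averaged lower in every blood group than in marrow, and Gata2 in all but G-CSF blood. Summed over the list as multiples of the 75th percentile, 8 mast cell and basophil markers reached 5.29 to 6.61 in G-CSF, 3.45 to 12.6 in AMD3100 and 4.53 to 6.75 in CWHM-823+tGro-b blood, against 1.57 to 2.71 in marrow. Between 3 and 7 of the 8 were above background on an array. The histidine decarboxylase gene Hdc averaged -0.32, -0.57 and 0.88 in the G-CSF, AMD3100 and CWHM-823+tGro-b groups, against -3.08 in marrow, and Cpa3 and Gzmb were also higher in all 3 blood groups. Mcpt8, the brightest of the list on average, lay at 1.59, 2.14 and 0.96, against 0.52 in marrow. It ran from 0.23 to 3.31 across AMD3100 arrays. Other members did not follow: Prss34 averaged -5.16, -3.19 and -4.85, against -3.47 in marrow, and Cma1 -5.60, -4.775 and -3.57, against -4.145. Neither was above background on every array of any group. Of the IgE receptor chains, Fcer1a was above background on 3 G-CSF, 0 AMD3100 and 2 CWHM-823+tGro-b arrays and on 0 marrow arrays, and Ms4a2 on 0 arrays of any group. The 7 measured erythroid markers, led by the haemoglobin gene Hba-a1, summed to 7.28 to 7.68 in G-CSF, 1.99 to 2.95 in AMD3100 and 10.5 to 18.9 in CWHM-823+tGro-b blood, against 2.55 to 5.53 in marrow. The erythroid sum followed Hba-a1, at 2.74, 0.04 and 3.54 in the G-CSF, AMD3100 and CWHM-823+tGro-b groups and -0.91 in marrow. The erythroid factor gene Klf1 averaged -2.93, -1.59 and -0.69, against -0.69 in marrow. Car1, Epor and Rhag were lower in all 3 blood groups than in marrow. Tfrc was higher in all 3, at -2.43, -2.58 and -2.57, against -3.16 in marrow. Hbb-b1 also averaged higher in all 3, but was not above background on every array of any group. Of the other lists, 8 megakaryocyte and platelet markers summed to 5.25 to 5.68 in G-CSF and 5.78 to 6.39 in AMD3100 blood, against 9.27 to 11.9 in marrow. The 8 dendritic cell markers summed to 28.2 to 37.6 in G-CSF blood, against 43.0 to 53.1 in marrow, and the 8 endothelial and stromal markers to 5.23 to 6.26 in G-CSF and 5.55 to 6.02 in AMD3100 blood, against 4.59 to 5.17 in marrow. The members of that last list were not alike. In G-CSF blood Pecam1 and Pdgfrb averaged 0.77 and 0.31, against -0.02 and -1.02 in marrow. Cdh5, Kdr, Cxcl12, Lepr and Col1a1 averaged lower in G-CSF blood than in marrow. In AMD3100 blood only Cdh5 and Lepr averaged lower than in marrow. The part of these cell types in the Nr4a levels was not tested.

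The third marrow array stood apart, with neutrophil markers summing to 32.2 against 2.03 to 4.35 on the other 11 arrays. It also had the lowest level of Nr4a1 and of both Nr4a2 probes. Without it the difference from marrow for Nr4a1 was 3.13, 3.25 and 4.40 in the G-CSF, AMD3100 and CWHM-823+tGro-b groups, and for Nr4a2 0.93, 1.54 and 3.29. The Nr4a3 bounds without it were 1.96 in AMD3100 and 4.51 in CWHM-823+tGro-b blood.

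Genes that calcium and cyclic AMP signals are known to induce through CREB and calcineurin, the same inputs that induce the Nr4a genes, were compared with marrow by the linear model, with p-values adjusted over all 23793 genes. Of 20 listed genes 18 were tested, and 2 rose in G-CSF blood (1.18% of all genes rose), 3 in AMD3100 blood (0.513%) and 5 in CWHM-823+tGro-b blood (0.340%). With limma 0 fell, also at an unadjusted p under 0.05, while 0.555%, 0.908% and 0.0294% of all genes fell in the G-CSF, AMD3100 and CWHM-823+tGro-b groups. The median difference of the list was 0.33, 0.91 and 0.71, against -0.25, 0.11 and -0.05 over all genes. In the fit that takes the slide into account, called the block below, 5 rose in each of the 3 comparisons, while 8.24%, 5.84% and 0.769% of all genes did. At an unadjusted p under 0.05, 6, 7 and 8 of the 18 were higher, while 8.42%, 8.73% and 2.52% of all genes were higher and 11.2%, 9.93% and 3.14% lower. These lists were drawn up with earlier results of the same arrays known, so their counts are not independent evidence. Without the third marrow array the counts were 2, 1 and 2.

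**Figure D5:**
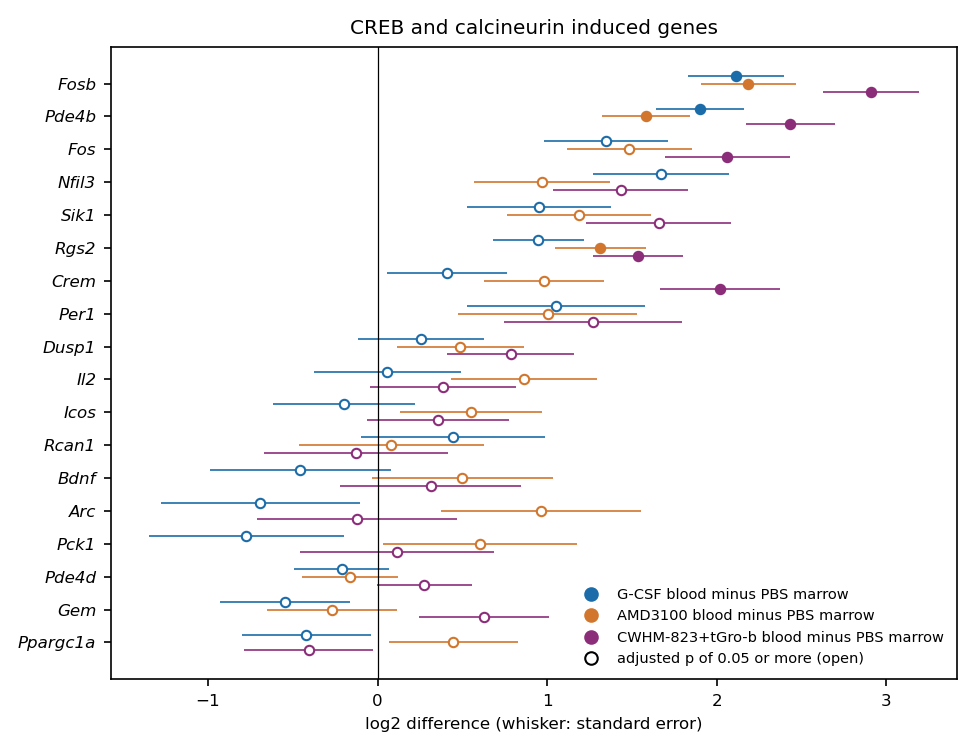
Log2 difference from marrow, with its standard error, of the 18 tested CREB and calcineurin induced genes in G-CSF, AMD3100 and CWHM-823+tGro-b blood. Filled points have an adjusted p under 0.05, and Fosb and Pde4b are filled in all 3 comparisons.

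Fosb, an immediate early partner in the AP-1 factor, lay at 5.38, 5.14 and 5.78 in G-CSF, at 5.77, 5.11 and 5.64 in AMD3100 and at 6.31, 5.89 and 6.48 in CWHM-823+tGro-b blood, against 3.32, 3.03 and 3.61 in marrow. Every blood array was above every marrow array, and Fosb rose by 2.11 ± 0.28 (adjusted p = 0.00214), 2.19 ± 0.28 (adjusted p = 0.00441) and 2.91 ± 0.28 (adjusted p = 0.000305, limma). Pde4b lay at 2.52, 2.36 and 2.74 in G-CSF, at 2.44, 1.91 and 2.31 in AMD3100 and at 3.31, 3.01 and 2.90 in CWHM-823+tGro-b blood, against 1.07, 0.45 and 0.38 in marrow. It rose by 1.90 ± 0.26 (adjusted p = 0.00266), 1.58 ± 0.26 (adjusted p = 0.0161) and 2.44 ± 0.26 (adjusted p = 0.00067). In AMD3100 blood the Pde4b call was lost without AMD3100 array 1 or marrow array 2 or 3 (adjusted p of 0.0506 to 0.0789) and with only the groups compared in the fit (adjusted p = 0.0616).

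Fos, Crem and Rgs2 passed less firmly. Rgs2, a brake on G protein signalling, rose by 1.31 ± 0.27 in AMD3100 blood (adjusted p = 0.0353) and by 1.54 ± 0.27 in CWHM-823+tGro-b blood (adjusted p = 0.0311), against 0.95 ± 0.27 in G-CSF blood (adjusted p = 0.105, or 0.0228 with the block). Crem, a CREB relative that closes the cyclic AMP response, lay at 0.05, -0.37 and -0.10 in CWHM-823+tGro-b blood, against -1.93, -2.48 and -2.08 in marrow, and rose by 2.02 ± 0.35 (adjusted p = 0.0327). In G-CSF and AMD3100 blood its difference was 0.41 ± 0.35 and 0.98 ± 0.35 (adjusted p = 0.480 and 0.172, the second 0.0270 with the block). Fos, a core member of AP-1, rose by 2.06 ± 0.37 in CWHM-823+tGro-b blood (adjusted p = 0.0361). Its differences of 1.35 ± 0.37 in G-CSF and 1.49 ± 0.37 in AMD3100 blood passed with the block (adjusted p = 0.00906 and 0.00776) and not without it (adjusted p = 0.0954 and 0.0724). The calcineurin inhibitor gene Rcan1 was near its marrow level, at 0.45 ± 0.54, 0.08 ± 0.54 and -0.13 ± 0.54.

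Several of these calls were lost when a single array was left out. In CWHM-823+tGro-b blood all of Crem, Fos and Rgs2 lost their call without G-CSF array 1, AMD3100 array 1, any CWHM-823+tGro-b array or marrow array 2 or 3, and Crem and Fos also without marrow array 1. Fos in addition lost it without AMD3100 array 2. Adjusted p then ranged over 0.0590 to 0.165 for Crem, 0.0520 to 0.166 for Fos and 0.0574 to 0.154 for Rgs2. In AMD3100 blood Rgs2 lost it without G-CSF array 1 or 3, AMD3100 array 1 or 3 or any marrow array (adjusted p of 0.0507 to 0.124). Other settings lost calls too. Rgs2 lost both with quantile normalization, the authors' table, no filter, only the groups compared and the mean of its probes (adjusted p of 0.0552 to 0.132 in AMD3100 and 0.0535 to 0.146 in CWHM-823+tGro-b blood). In CWHM-823+tGro-b blood Crem lost its call with the first 3 of these (adjusted p of 0.0599 to 0.0874), and Fos with no filter and only the groups compared (adjusted p of 0.0668 to 0.0786). The direction stayed the same in all of these fits.

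Signalling genes upstream of the Nr4a promoters, among them CREB and its coactivators, the MEF2 and NFAT factors, calcineurin and the MAP kinases, were compared with marrow in the same way. Of 32 tested, 1 rose in G-CSF blood (1.18% of all genes) and 0 in AMD3100 and CWHM-823+tGro-b blood (0.513% and 0.340%), and 0 fell, counts too small to set apart from those shares. At an unadjusted p under 0.05, limma gave 3 higher and 1 lower, 0 higher and 6 lower, and 1 higher and 0 lower, where the shares of all genes were 8.42% and 11.2%, 8.73% and 9.93%, and 2.52% and 3.14%. The block gave 3 higher in G-CSF blood, 5 lower in AMD3100 blood and 0 calls in CWHM-823+tGro-b blood, where 8.24% of all genes were higher in the first and 7.70% lower in the second. The gene that rose was Rps6ka3, the kinase RSK2 that acts between MAP kinases and CREB, at 4.26, 3.84 and 4.42 in G-CSF blood, against 2.57, 2.01 and 2.75 in marrow (difference 1.73 ± 0.28, adjusted p = 0.00799). Between G-CSF and AMD3100 blood, 10 of the 32 were higher in G-CSF blood and 1 lower, while 12.6% of all genes were higher and 18.4% lower. With the block 15 were higher and 3 lower, while 5485 of 23793 genes were higher and 9419 lower.

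Known partners and coregulators of the receptors, such as the corepressors NCoR and CoREST and the acetyltransferases CBP and p300, gave 0 calls of 18 against marrow in each blood group with limma. At an unadjusted p under 0.05, 2 were higher in G-CSF blood (8.42% of all genes), 2 were lower in AMD3100 blood (9.93%) and 0 passed in CWHM-823+tGro-b blood. With the block 2 were higher in G-CSF blood, where 8.24% of all genes were higher, and 3 were lower in AMD3100 blood. Of all genes 11.3%, 7.70% and 0.311% were lower with the block in G-CSF, AMD3100 and CWHM-823+tGro-b blood. These counts are too small to set apart from the shares. Between G-CSF and AMD3100 blood, where 12.6% of all genes were higher and 18.4% lower, 3 of the 18 partners were higher in G-CSF blood. That count is too small to set apart from the share of all genes. The 3 partners were the demethylase gene Kdm1a (0.93 ± 0.20, adjusted p = 0.0110), the deacetylase gene Hdac1 (1.02 ± 0.29, adjusted p = 0.0247) and Sirt1 (0.89 ± 0.29, adjusted p = 0.0397). With the block 10 partners were higher and 2 lower in that comparison, while 5485 of 23793 genes were higher and 9419 lower. After quantile normalization, genes higher in that comparison outnumbered lower ones, at 3297 against 2629, in place of 3008 against 4382. Without the block, the other nuclear receptors described below had 5 higher and 6 lower of 37 in that comparison. The Nr4a targets in blood cells had 4 higher and 5 lower of 19, and those in other tissues 2 higher and 9 lower of 19. The CREB and calcineurin induced genes had 0 calls of 18.

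Among the other members of the nuclear receptor superfamily, 37 of 46 listed were tested, and 1 rose and 0 fell in each comparison with marrow, where 1.18%, 0.513% and 0.340% of all genes rose. With the block the counts were 2 higher and 8 lower in G-CSF, 3 and 6 in AMD3100, and 1 and 1 in CWHM-823+tGro-b blood, against 8.24% and 11.3%, 5.84% and 7.70%, and 0.769% and 0.311% of all genes. At an unadjusted p under 0.05 they were 2 and 6, 3 and 7, and 2 and 1. The unadjusted shares of all genes were 8.42% and 11.2%, 8.73% and 9.93%, and 2.52% and 3.14%. Rara, the retinoic acid receptor alpha, lay at 0.48, -0.21 and -0.22 in G-CSF and at -0.33, -0.82 and -1.38 in CWHM-823+tGro-b blood, against -2.44, -3.24 and -3.43 in marrow. It rose by 3.05 ± 0.37 in G-CSF blood (8.28-fold, adjusted p = 0.00117) and by 2.19 ± 0.37 in CWHM-823+tGro-b blood (4.57-fold, adjusted p = 0.0261). In AMD3100 blood its difference was 1.23 ± 0.37 (adjusted p = 0.116, or 0.0441 with the block). With normexp the differences that passed were 2.12 and 1.42. Rara was higher in G-CSF than in AMD3100 blood (1.82 ± 0.37, adjusted p = 0.00991), while its difference between G-CSF and CWHM-823+tGro-b blood did not pass (0.86 ± 0.37, adjusted p = 0.461). The CWHM-823+tGro-b call was lost without CWHM-823+tGro-b array 1 or 2 or marrow array 2 or 3 (adjusted p of 0.0858 to 0.136) and with only the groups compared (adjusted p = 0.0830).

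Nr3c2, the mineralocorticoid receptor, rose by 1.32 ± 0.28 in AMD3100 blood (adjusted p = 0.0426), against differences of -0.20 ± 0.28 in G-CSF and 0.73 ± 0.28 in CWHM-823+tGro-b blood. That call was lost without any 1 of the 9 G-CSF, AMD3100 and marrow arrays, and also without the third CWHM-823+tGro-b array (adjusted p of 0.0545 to 0.175), and with normexp, the authors' table, no filter or only the groups compared (adjusted p of 0.0566 to 0.0955). The retinoid X receptors, which can pair with Nr4a1 and Nr4a2, did not pass against marrow in any group. Their differences in G-CSF, AMD3100 and CWHM-823+tGro-b blood were -0.63, 0.30 and 0.02 (each ± 0.44) for Rxra, 0.62, -0.98 and 0.03 (each ± 0.29) for Rxrb and -0.56, 0.23 and -0.34 (each ± 0.27) for Rxrg. With the block Rxrb was lower in AMD3100 blood (adjusted p = 0.0295).

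Genes described as Nr4a targets in blood cells and in other tissues were compared in the same way. Of 19 tested blood cell targets 1 rose in G-CSF, 0 in AMD3100 and 1 in CWHM-823+tGro-b blood, and 0 fell with limma, where 1.18%, 0.513% and 0.340% of all genes rose. At an unadjusted p under 0.05 there were 4 higher and 4 lower, 5 and 1, and 4 and 0, and with the block 4 and 3, 3 and 1, and 3 and 0. The block shares over all genes were 8.24% higher and 11.3% lower, 5.84% and 7.70%, and 0.769% and 0.311%. The unadjusted shares were 8.42% and 11.2%, 8.73% and 9.93%, and 2.52% and 3.14%. Junb, an AP-1 member that Nr4a1 and Nr4a3 are reported to act on in mice, lay at 2.77, 1.95 and 3.19 in G-CSF, at 0.46, 0.42 and 1.096 in AMD3100 and at 2.26, 1.91 and 1.40 in CWHM-823+tGro-b blood, against 0.41, -0.79 and -0.49 in marrow. All blood arrays were above all marrow arrays, narrowly so after AMD3100. Junb rose by 2.92 ± 0.40 in G-CSF blood (adjusted p = 0.00266) and by 2.15 ± 0.40 in CWHM-823+tGro-b blood (adjusted p = 0.0494), while in AMD3100 blood the difference was 0.95 ± 0.40 (adjusted p = 0.235).

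The Junb call in CWHM-823+tGro-b blood was lost without G-CSF array 1, any AMD3100 or CWHM-823+tGro-b array, or marrow array 2 or 3 (adjusted p of 0.0594 to 0.234), and with the authors' table, no filter or only the groups compared (adjusted p of 0.0627 to 0.0979). Cebpa, a myeloid factor, had differences of 1.32 ± 0.31, 0.31 ± 0.31 and 0.33 ± 0.31 in the G-CSF, AMD3100 and CWHM-823+tGro-b groups, of which the first passed with the block (adjusted p = 0.00918) and not without it (adjusted p = 0.0566). Myc, which Nr4a1 is reported to repress in mice, had differences of 0.39 ± 0.22, 0.51 ± 0.22 and 0.50 ± 0.22, and the AMD3100 value passed with the block (adjusted p = 0.0436 against 0.237 without). Of 19 tested targets in other tissues, 1 rose in G-CSF blood and 0 in AMD3100 and CWHM-823+tGro-b blood, and 0 fell, beside the same shares of all genes. At an unadjusted p under 0.05, limma gave 1 higher and 6 lower, 3 and 3, and 1 and 0, and with the block 1 and 3, 0 and 1, and 0 and 0. Of all genes 8.42% were higher and 11.2% lower, 8.73% and 9.93%, and 2.52% and 3.14% unadjusted. With the block these shares were 8.24% and 11.3%, 5.84% and 7.70%, and 0.769% and 0.311%. The gene that rose was Spp1, osteopontin, at -1.22, -1.51 and -1.71 in G-CSF blood, against -4.73, -3.63 and -4.01 in marrow, where 1 of 3 arrays was above background (difference 2.64 ± 0.41, adjusted p = 0.00635). With normexp the Spp1 difference was 1.44 (adjusted p = 0.0155), and its size rests on marrow signals near background.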

How the data were processed

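The authors deposited scanner output with a processed signal intensity for each spot, from Agilent Feature Extraction 11.5.1.1 per the submitters' processing notes, and a table of normalized intensity values for 30354 probes, whose normalization is not given in the sources used here. Per the labels, RNA was amplified with the WTA2 kit and labelled with Kreatech ULS. The number of arrays limits the precision.

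Outlier spots were dropped, spots of a probe averaged on the log2 scale, and the log2 of the deposited intensity was expressed relative to the array's 75th percentile. No spot of 43020 was saturated. The background filter asked that some group have the probe well above background on each of its arrays; 29641 probes passed, and 29495 were left without 146 that had only outlier spots on an array. A probe with several spots counted as above background where more than 50% of its usable spots were. For each of the 23793 genes the brightest probe on average was used. Gene names are those of the scanner output, updated for 28330 probes matched to the RefSeq gene table (GRCm38.p6).

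The linear model, in limma 3.58.1 under R 4.3.3, had a mean for each of the 4 groups over the 12 arrays and 2-sided tests, with Benjamini-Hochberg adjustment over all genes of a comparison. An adjusted p under 0.05 passed. Arrays of the same replicate number share a slide, and after removal of group means their 18 pairs correlated at 0.260 to 0.616, against -0.446 to 0.036 for the other 36 pairs, so results with the slide as a factor (the block) stand beside counts that it changes. The script was tested on simulated data. Promoter windows came from RefSeq (GRCm38.p6), searched on both strands, and matched all 3 genes. The Nr4a1 probe sequence is not reported here.

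The members and the 6 gene lists were chosen with earlier results of these data known. Named genes were all Nr4a probes, the 5 genes of highest correlation with each, up to 5 members of a list with the smallest p among those that passed, and Crem, Rcan1, Cebpa, Myc, Rxra, Rxrb and Rxrg whatever their values. Alternatives were quantile normalization, normexp, the authors' table, other filters, the block, only the groups compared, the mean of a gene's probes and leaving out each array.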

Additional observations from a re-analysis of the deposited data

How the results depend on the processing

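The differences of Nr4a1 and Nr4a2 from marrow kept their sign under every alternative run. With an array left out they ranged over 3.13 to 3.82, 3.25 to 3.94 and 4.40 to 5.09 for Nr4a1 and 0.93 to 1.42, 1.54 to 2.03 and 3.29 to 3.78 for Nr4a2 in the G-CSF, AMD3100 and CWHM-823+tGro-b groups. The lowest of these Nr4a1 values came without marrow array 3. They lay below the values of all arrays (3.57, 3.69 and 4.84) by more than the standard error of 0.38. The log2 bound of Nr4a3 in CWHM-823+tGro-b blood was 4.69 after quantile normalization, 3.00 after normexp and 4.23 to 4.51 with an array left out. In AMD3100 blood it was 1.04 after normexp and 1.62 to 2.16 with an array left out. Nr4a3 has no value with the authors' table or with the filter that asks for signal on all arrays. The Nr4a1 difference between G-CSF and AMD3100 blood changed sign without G-CSF array 2 (0.08) or AMD3100 array 1 (0.15) and ranged over -0.31 to 0.15.

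The share of tested genes that passed moved more. Against marrow it was 1.74%, 1.42% and 0.370% in the G-CSF, AMD3100 and CWHM-823+tGro-b groups, and with the replicate block 19.5%, 13.5% and 1.08%. Between blood groups it was 31.1% for G-CSF against AMD3100, 0.626% for G-CSF against CWHM-823+tGro-b and 0.147% for CWHM-823+tGro-b against AMD3100 blood, and with the block 62.6%, 2.2% and 16.9%. With only the groups compared it was 0.971% and 0.597% for G-CSF and AMD3100 blood against marrow, and 16.3%, 0.198% and 0.0462% between blood groups. AMD3100 blood against marrow gave 3.13% after quantile normalization, 0.714% after normexp and 0.555% with no filter. CWHM-823+tGro-b against AMD3100 blood gave 0.450% with quantile normalization, 0.0378% with normexp, 0.0122% with the authors' table and 0.0256% with the all-array filter. The authors' table gave 0.970% for G-CSF blood against marrow and 0.363% for G-CSF against CWHM-823+tGro-b blood. With an array left out the range was 0.782% to 3.12%, 0.277% to 1.35% and 0.223% to 0.361% against marrow, and 6.18% to 43%, 0.298% to 0.773% and 0.0462% to 0.303% between blood groups. The lowest of these shares came without marrow array 2 for G-CSF and AMD3100 blood against marrow, without CWHM-823+tGro-b array 1 for both comparisons of CWHM-823+tGro-b blood with marrow and with AMD3100 blood, and without G-CSF array 1 or 3 for G-CSF against AMD3100 and against CWHM-823+tGro-b blood. The highest came without AMD3100 array 3 for CWHM-823+tGro-b against AMD3100 blood and without G-CSF array 2 for the others. The median difference of all genes for G-CSF against AMD3100 blood was -0.37 with the 75th percentile and -0.10 after quantile normalization. The causes were not tested. Signal over background limits Nr4a3 in marrow and in G-CSF blood.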
